A study of Mus musculus with 16 samples.

Results

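The Serinc genes encode serine incorporators, a family of membrane proteins that cross the membrane many times. They were measured in macrophages grown from mouse bone marrow, with and without the glucocorticoid dexamethasone and in cells labelled wildtype or FOXO3-/-. Of 54532 gene identifiers, 4 were chosen by symbol: Serinc1, Serinc2, Serinc3 and Serinc5. They were picked because Serinc3 had been seen in these same libraries to differ by genotype, while its paralogs serve as the comparison. The Serinc3 differences are therefore given as a description with no test. Serinc4, the remaining mouse paralog, was listed at 0 in all 16 libraries, where 3 reads would have given 0.0328 to 0.0396 FPKM, and it overlaps other genes.

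Serinc proteins were named for a role in supplying serine to the synthesis of phosphatidylserine and sphingolipids, both of which are membrane lipids. SERINC3 and SERINC5 are known as antiretroviral restriction factors. When they are built into the envelope of a retrovirus they lower its infectivity, and the HIV protein Nef and the glycosylated Gag of murine leukaemia virus remove them from the cell surface. Both have also been described as lipid scramblases, which let phospholipids move between the leaflets of a membrane. FOXO3 is a forkhead transcription factor, and the glucocorticoid receptor is the nuclear receptor that dexamethasone activates.

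All cells came from FVB/N mice and were cultured for 5 to 7 days in medium with L929-conditioned supernatant, which supplies macrophage growth factor. Differentiated cells then received the DMSO vehicle or dexamethasone at 100 nM for 24 h. The 4 groups of 4 libraries were wildtype with vehicle, wildtype with dexamethasone, FOXO3-/- with vehicle and FOXO3-/- with dexamethasone. The labels used here give neither the age or number of the mice nor whether replicates were separate animals or cultures, so p-values cover only library-to-library spread, and that spread may be technical. Values are FPKM, fragments per kilobase of exon and scaled to depth, so that levels of different genes can be set side by side per length. Reads recovered from the FPKM values summed to between 16886745 and 20584573 per library over all genes. The read totals by which FPKM had been scaled were inferred as 16453945 to 19857067. In FOXO3-/- vehicle replicate 2 the sum was 20496255 against a total of 16568784, so the sums are approximate and can be too high.

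Foxo3 itself was at 24.7 ± 1.72 FPKM (SD, n = 4) in wildtype and 23.8 ± 0.635 in FOXO3-/- libraries with vehicle (exact permutation test, two-sided, p = 0.371). With dexamethasone it was at 23.2 ± 1.07 and 24.5 ± 1.44 (exact permutation test, p = 0.171). The labels do not say which part of Foxo3 the allele removes, and a value over the whole gene does not check the deletion, so genotypes below are those of the labels. Of 3 established receptor targets, Fkbp5, Tsc22d3 and Per1, 3 rose with dexamethasone in each genotype by limma. Of all genes, 11.9% rose in wildtype and 15% in FOXO3-/- libraries. The macrophage markers summed to between 9861 and 15639 FPKM in every library, with Adgre1, the F4/80 antigen, at 615 ± 118 and 279.7 ± 128 FPKM in wildtype and 1282 ± 148 and 705 ± 60.7 in FOXO3-/- libraries with vehicle and dexamethasone (SD, n = 4). Of 9 macrophage markers tested, 2 rose and 6 fell with dexamethasone in wildtype and 3 rose and 5 fell in FOXO3-/- libraries. Over all genes 11.9% and 18.2% rose and fell in wildtype and 15% and 24.1% in FOXO3-/- libraries. Between genotypes 1 was higher and 0 lower in FOXO3-/- libraries with vehicle, and 4 and 0 with dexamethasone. The shares of all genes were 3.37% and 1.3% with vehicle and 14.3% and 12.4% with dexamethasone. Neutrophil markers summed to at most 4.68 FPKM with Ly6g at 0, and dendritic and lymphoid markers to at most 0.564 and 0.431. Osteoclast markers summed to 61.2 to 108 FPKM in wildtype libraries with vehicle and 49.7 to 82.0 with dexamethasone. In FOXO3-/- libraries the sums were lower, 28.8 to 34.5 and 26.9 to 30.7 FPKM. Of 4 osteoclast markers tested, 2 were called lower in FOXO3-/- libraries with vehicle and 3 with dexamethasone, where 1.3% and 12.4% of all genes were. Stromal markers were unevenly spread. Col1a1, the collagen of fibroblasts and bone, was at 127, 124, 6.77 and 174 FPKM in wildtype libraries with vehicle and at 355.5, 159, 286 and 19.1 with dexamethasone. The FOXO3-/- libraries had it at 4.76, 0.506, 0.395 and 95.8 FPKM with vehicle and at 1.18, 1.20, 14.95 and 25.5 with dexamethasone. Wildtype vehicle replicate 3, wildtype dexamethasone replicate 4 and FOXO3-/- vehicle replicate 4 thus stood apart from their groups. Each difference and count from limma below was also computed without these 3 libraries. The shares of all genes called that are given below come from the fit of all 16 libraries. None is given for fits that leave libraries out, so nothing is read from the counts of those fits. Counts at an unadjusted p have no such share beside them either, and nothing is read from them.

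The genes lie apart in the genome (GENCODE M21 on GRCm38). Serinc3 (ENSMUSG00000017707) is on chromosome 2 from 163623272 to 163645131 on the minus strand. Serinc5 (ENSMUSG00000021703) is on chromosome 13 from 92611091 to 92711947 on the plus strand. Serinc1 (ENSMUSG00000019877) is on chromosome 10 from 57515774 to 57532530 on the minus strand, with its start 15.3 Mb from that of Foxo3. Serinc2 (ENSMUSG00000023232) is on chromosome 4 from 130253495 to 130279205 on the minus strand. Serinc4 (ENSMUSG00000046110) is on chromosome 2 from 121439059 to 121456781 and overlaps Ell3, Serf2 and Hypk.

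The sequence before the start is shown for Serinc3 and Serinc5, the paralogs that stood higher with dexamethasone in wildtype libraries and lower in FOXO3-/- libraries. Both were taken from RefSeq windows on GRCm38.p6, at chr2:163645144-163645393 on the minus strand and chr13:92610888-92611090 on the plus strand. Capitals mark GTAAAC, the 6-letter core bound by forkhead factors. For Serinc5 the last 47 bases of the window were left out because they lie inside the GENCODE gene.

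Serinc3: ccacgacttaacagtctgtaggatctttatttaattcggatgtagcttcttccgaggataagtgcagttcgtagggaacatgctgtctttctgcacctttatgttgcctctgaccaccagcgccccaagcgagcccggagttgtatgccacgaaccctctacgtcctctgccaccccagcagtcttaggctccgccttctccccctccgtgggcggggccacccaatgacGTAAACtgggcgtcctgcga

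Serinc5: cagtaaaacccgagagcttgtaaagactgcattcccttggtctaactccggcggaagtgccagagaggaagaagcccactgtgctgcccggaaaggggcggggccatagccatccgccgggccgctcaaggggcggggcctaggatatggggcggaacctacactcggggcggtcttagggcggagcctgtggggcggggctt

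In the Serinc3 sequence GTAAAC occurs once, on the strand of the gene, beginning 20 bases before the RefSeq start. This 6-letter search was chosen after the sequence had been seen. GTAAAC is found on either strand in 6.92% of 32851 RefSeq windows of 250 bases, and its 7-letter form GTAAACA, which contains it, in 3.17%; the 7-letter form is not in the Serinc3 window. Neither form is in the 250-base window of Serinc5. The half-site of the glucocorticoid receptor, AGAACA (16.1% of windows), and the full site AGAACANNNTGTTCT (0.00913%), which contains it, are in neither window. For the receptor only these exact letters were searched. Sites that differ from them by a letter were not looked for, so nothing is read from their absence. CG dinucleotides number 15 in the Serinc3 window and 18 in that of Serinc5, against a median of 6. A match of letters is a description, and no binding was measured here.

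Serinc3 was by far the most abundant paralog, followed by Serinc1 and then Serinc5, in every one of the 16 libraries. In wildtype libraries with vehicle Serinc3 was at 212, 249, 226 and 266 FPKM, and with dexamethasone at 611, 624, 544 and 728. In FOXO3-/- libraries it was at 127, 114, 122 and 117 FPKM with vehicle and at 145, 135, 135 and 146 with dexamethasone. The 4 groups did not overlap: every FOXO3-/- library was below every wildtype library, and within each genotype every library with dexamethasone was above every library with vehicle. The group means were 238 ± 23.7, 627 ± 76.2, 120 ± 5.55 and 140 ± 6.04 FPKM (SD, n = 4). These values rest on between 7283 and 48525 reads per library, so counting error is small beside the spread between libraries. By mean FPKM over all 54532 identifiers, Serinc3 ranked 156 in wildtype with vehicle, 42 with dexamethasone, 407 in FOXO3-/- with vehicle and 286 with dexamethasone.

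**Figure D1:**
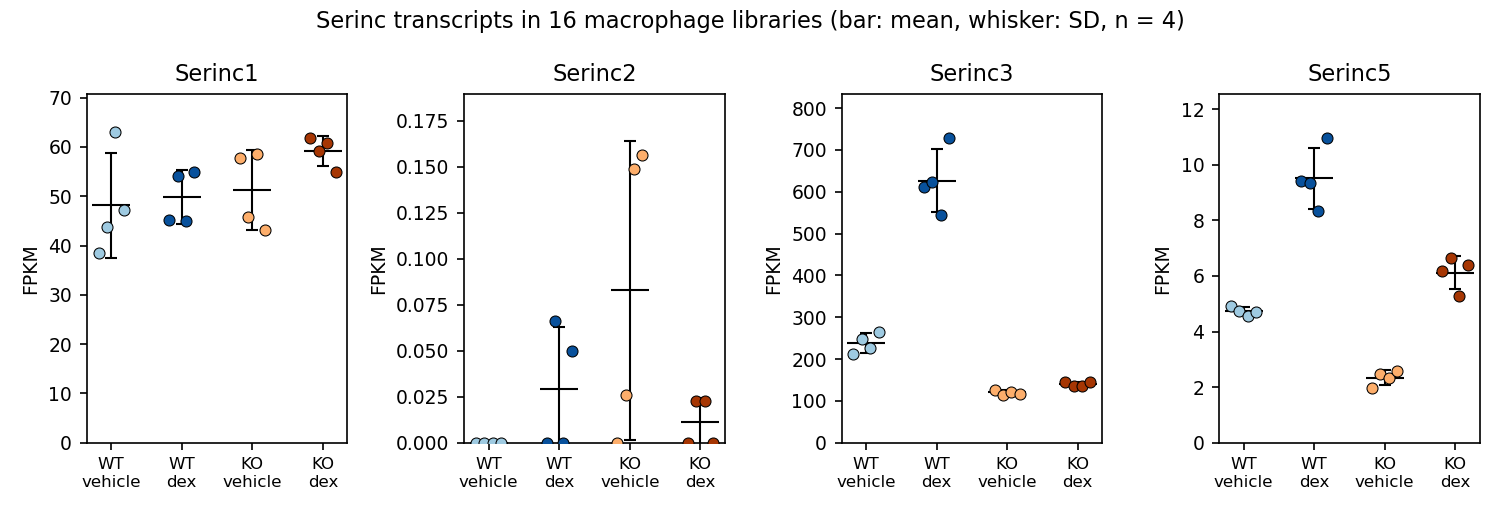
FPKM of the 4 Serinc genes in each of 16 libraries by group, each gene on its own linear axis, with the mean as a horizontal bar and the SD as a whisker (n = 4). Serinc3 in wildtype libraries with dexamethasone lies between 544 and 728 FPKM, above all other libraries, while the Serinc1 groups overlap.

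The Serinc3 mean with dexamethasone was 2.63 times that with vehicle in wildtype libraries and 1.17 times in FOXO3-/- libraries. On the log2(FPKM + 1) scale these differences were 1.39 ± 0.087 (SE) and 0.22 ± 0.087; the second was 0.46 with quantile normalization and 0.39 with voom on the recovered reads. The response in FOXO3-/- minus that in wildtype libraries, the interaction, was -1.17 ± 0.12. Between genotypes, the wildtype mean was 1.98 times the FOXO3-/- mean with vehicle and 4.47 times with dexamethasone, which are differences of -0.98 ± 0.087 and -2.14 ± 0.087. These differences chose the gene, and nothing is read from their size. Among the 11654 genes that reached 1 FPKM in at least 4 libraries, 117 had a higher difference with dexamethasone in wildtype libraries and 2433 in FOXO3-/- libraries. In the interaction 106 genes lay lower. For reference, groups that do not overlap, with the second higher, were seen for 10.8% of genes with dexamethasone in wildtype and 16.6% in FOXO3-/- libraries. FOXO3-/- groups wholly below wildtype groups were seen for 2.97% of genes with vehicle and 10.2% with dexamethasone.

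The library lowest in Col1a1 of the wildtype vehicle group, replicate 3, had 226 FPKM of Serinc3, inside the range of its group. Replicate 4 of wildtype with dexamethasone, also low in Col1a1, had the highest Serinc3 value of all, 728 FPKM. FOXO3-/- vehicle replicate 4, high in Col1a1 for its genotype, had 117 FPKM, again inside its group. Without these 3 libraries the Serinc3 differences were 1.29 and 0.21 with dexamethasone and -0.99 and -2.07 between genotypes on the log2 scale. The summed stromal markers, 10 genes of which 9 reached 1 FPKM in some library and none was at 0 throughout, ranged from 29.7 to 554 FPKM in wildtype vehicle, 67.1 to 1124 in wildtype dexamethasone, 2.87 to 389 in FOXO3-/- vehicle and 6.47 to 93.3 in FOXO3-/- dexamethasone libraries. In bulk RNA, a change in the number of cells that express a gene and a change in RNA per cell cannot be told apart.

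**Figure D2:**
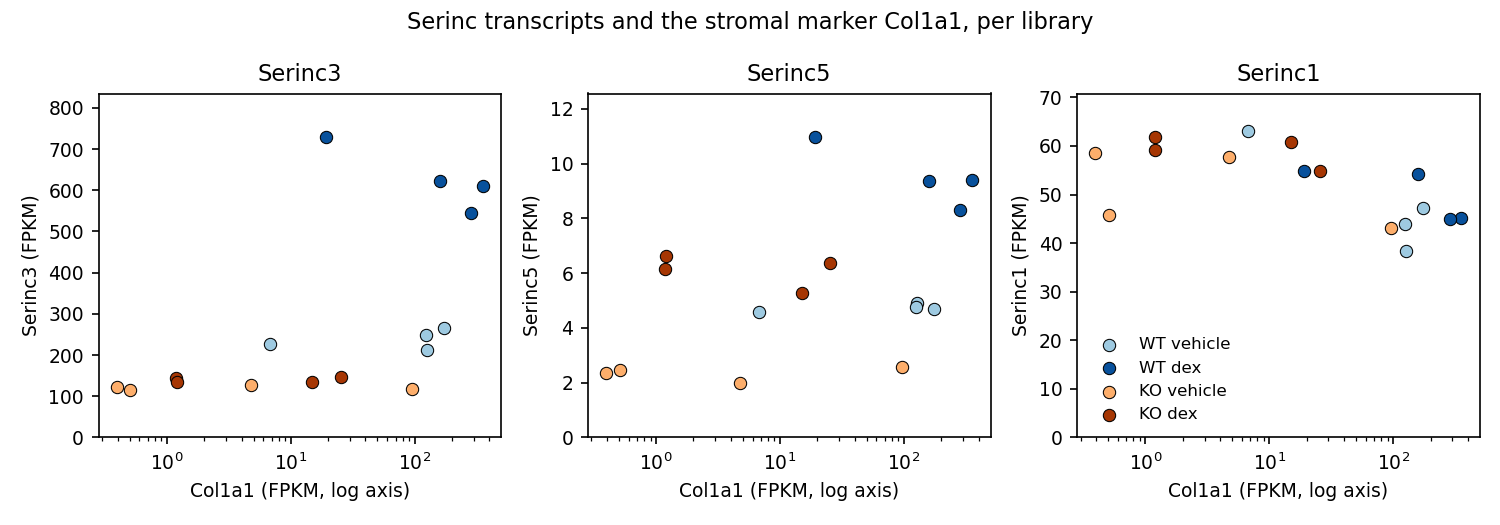
FPKM of Serinc3, Serinc5 and Serinc1 against that of the stromal marker Col1a1 in 16 libraries, coloured by group, with a log axis for Col1a1 and linear axes from 0 for the Serinc genes. The wildtype dexamethasone library with Col1a1 at 19.1 FPKM has the highest Serinc3 and Serinc5 values, and the FOXO3-/- vehicle library with Col1a1 at 95.8 lies with its own group in both.

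Serinc5, the other paralog known to restrict retroviruses, was a low transcript that differed with both drug and genotype. It was at 4.90, 4.75, 4.57 and 4.69 FPKM in wildtype libraries with vehicle and at 9.42, 9.35, 8.32 and 11.0 with dexamethasone. In FOXO3-/- libraries it was at 1.98, 2.47, 2.34 and 2.58 FPKM with vehicle and at 6.16, 6.64, 5.28 and 6.39 with dexamethasone. As with Serinc3, no groups overlapped between treatments within a genotype or between genotypes within a treatment. With dexamethasone higher, this was seen for 10.8% of all genes in wildtype and 16.6% in FOXO3-/- libraries. With FOXO3-/- lower, it was seen for 2.97% with vehicle and 10.2% with dexamethasone. Unlike for Serinc3, FOXO3-/- libraries with dexamethasone lay above wildtype libraries with vehicle. Between 228 and 1271 reads per library lie behind these values.

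Serinc5 rose with dexamethasone in wildtype libraries from a mean of 4.73 ± 0.140 to 9.51 ± 1.09 FPKM (SD, n = 4), 2.01-fold and higher by 0.87 ± 0.082 (SE) on the log2(FPKM + 1) scale (limma, adjusted p = 2.7e-06). In FOXO3-/- libraries it rose from 2.34 ± 0.260 to 6.12 ± 0.593 FPKM, 2.61-fold, by 1.09 ± 0.082 (limma, adjusted p = 1.89e-07). Of the 2 paralogs tested by limma, Serinc5 and Serinc1, Serinc5 was thus called higher with dexamethasone in each genotype, as were 11.9% of all genes in wildtype and 15% in FOXO3-/- libraries. The FOXO3-/- level was lower than wildtype by -0.78 ± 0.082 with vehicle (limma, adjusted p = 5.84e-05), where 1.3% of all genes were called lower. With dexamethasone the difference was -0.56 ± 0.082 (limma, adjusted p = 0.000474), where 12.4% were called lower. The wildtype mean was 2.02 times that of FOXO3-/- with vehicle and 1.56 times with dexamethasone. The 2 responses of Serinc5 differed by 0.22 ± 0.12 (95% interval -0.034 to 0.47; limma, adjusted p = 0.491), so a smaller or larger response in FOXO3-/- libraries was not resolved. With array weights, which give libraries unequal weight, that difference was 0.39 (adjusted p = 0.0261); the share of genes called in the interaction was 0.129%.

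Serinc1, a widely expressed paralog, passed no test in the limma fit of all libraries. It was at 38.4, 43.9, 63.1 and 47.2 FPKM in wildtype libraries with vehicle and at 45.2, 54.2, 45.0 and 54.9 with dexamethasone. In FOXO3-/- libraries it was at 57.8, 45.7, 58.6 and 43.1 FPKM with vehicle and at 61.9, 59.1, 60.9 and 54.9 with dexamethasone. All groups overlapped, and the libraries of a group were spread widely with vehicle. With dexamethasone the genotypes overlapped only through replicate 4 of each, at 54.89 FPKM in wildtype and 54.87 in FOXO3-/- libraries. Means were 48.1 ± 10.6, 49.8 ± 5.48, 51.3 ± 8.04 and 59.2 ± 3.10 FPKM (SD, n = 4), from 3510 to 5970 reads per library.

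The Serinc1 difference with dexamethasone was 0.06 ± 0.14 on the log2 scale in wildtype (95% interval -0.23 to 0.36; limma, adjusted p = 0.760) and 0.21 ± 0.14 in FOXO3-/- libraries (-0.084 to 0.51; adjusted p = 0.237), where quantile normalization gave 0.37 (adjusted p = 0.0486) and voom 0.39 (adjusted p = 0.0289). FOXO3-/- minus wildtype was 0.10 ± 0.14 with vehicle (-0.20 to 0.40; limma, adjusted p = 0.699) and 0.25 ± 0.14 with dexamethasone (-0.049 to 0.55; adjusted p = 0.184). These intervals do not hold the size of the Serinc5 response in either genotype or of its loss in FOXO3-/- libraries, but they leave room for smaller changes of Serinc1. With array weights Serinc1 was called higher in FOXO3-/- libraries by 0.34 in each treatment (limma, adjusted p = 0.00974 with vehicle and 0.00511 with dexamethasone). The library with the highest Serinc1 of its group, wildtype vehicle replicate 3, had Col1a1 at 6.77 FPKM, and the lowest of the FOXO3-/- vehicle group, replicate 4, had Col1a1 at 95.8. Without the 3 libraries that stood apart in Col1a1, Serinc1 was called higher in FOXO3-/- than in wildtype libraries, by 0.31 with vehicle (limma, adjusted p = 0.0393) and 0.30 with dexamethasone (adjusted p = 0.03). With a stromal score as a covariate these differences were -0.12 ± 0.12 (limma, adjusted p = 0.713) and -0.026 ± 0.13 (adjusted p = 0.937). No direction was resolved in that fit, and the cause of the shift was not tested.

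Serinc2 was at or near 0. It had no read in the 4 wildtype libraries with vehicle, 0, 3, 0 and 2 reads with dexamethasone, and in FOXO3-/- libraries 0, 1, 6 and 7 reads with vehicle and 0, 1, 1 and 0 with dexamethasone. The highest value was 0.156 FPKM, and 3 reads correspond to 0.0651 to 0.0786 FPKM, so only FOXO3-/- vehicle replicates 3 and 4 lay clearly above that floor. Exact permutation tests, two-sided, gave p = 0.429 and 0.171 for dexamethasone in wildtype and FOXO3-/- libraries and p = 0.143 and 0.429 for genotype with vehicle and dexamethasone, or 0.429, 0.343, 0.343 and 0.429 after adjustment over these 4. The smallest p that 4 against 4 libraries can give is 0.0286. No change of Serinc2 was detectable at this depth.

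**Figure D3:**
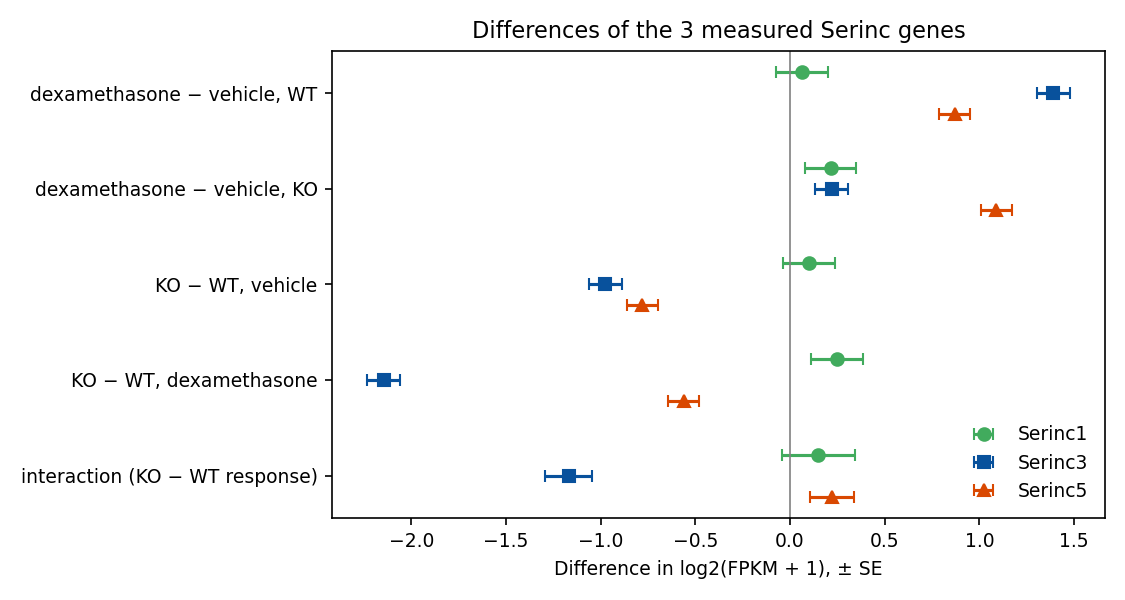
Differences in log2(FPKM + 1) with their SE for Serinc1, Serinc3 and Serinc5 in 5 comparisons, from the same limma model. Serinc5 lies to the right with dexamethasone in both genotypes (0.87 and 1.09), Serinc3 has 1.39 in wildtype and 0.22 in FOXO3-/- libraries, and Serinc1 lies between 0.06 and 0.25.

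The make-up of the family followed these levels. Serinc3 gave 81.8% ± 3.27 (SD, n = 4) of the summed Serinc FPKM in wildtype libraries with vehicle and 91.3% ± 0.505 with dexamethasone. Its share in FOXO3-/- libraries was 69.2% ± 2.36 with vehicle and 68.2% ± 1.53 with dexamethasone. Serinc1 held 16.5% ± 3.31 and 7.28% ± 0.519 in wildtype and 29.4% ± 2.57 and 28.8% ± 1.62 in FOXO3-/- libraries. The Serinc5 share stayed small, at 1.64% ± 0.193, 1.39% ± 0.0224, 1.36% ± 0.239 and 2.98% ± 0.290 in the same order. The summed level of the family was 291 ± 25.8 and 686 ± 81.6 FPKM in wildtype libraries and 174 ± 12.8 and 206 ± 5.84 FPKM in FOXO3-/- libraries. Since Serinc3 makes up most of the sum and chose the set, these shares are a description.

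**Figure D4:**
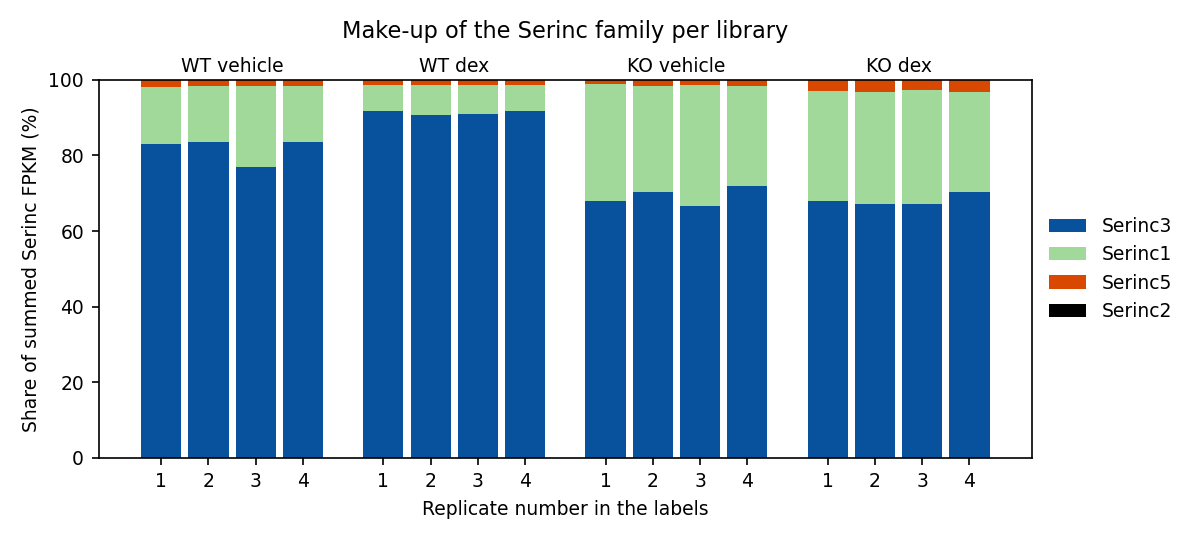
Share of each Serinc gene in the summed Serinc FPKM (%) in 16 libraries, as stacked bars by group and replicate number. Serinc3 makes up between 90.7% and 91.8% in wildtype libraries with dexamethasone and between 66.6% and 71.9% in FOXO3-/- libraries with vehicle, and Serinc2 is too low to be seen.

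Set against its paralogs, Serinc3 stood at 5.10 ± 1.02 times Serinc1 (SD, n = 4) in wildtype libraries with vehicle and 12.6 ± 0.958 times with dexamethasone. The ratio in FOXO3-/- libraries was 2.38 ± 0.292 with vehicle and 2.38 ± 0.195 with dexamethasone. The ratio to Serinc5 was 50.4 ± 5.57 and 65.8 ± 0.834 in wildtype and 52.1 ± 8.60 and 23.1 ± 2.17 in FOXO3-/- libraries. With vehicle, therefore, Serinc3 and Serinc5 stood in a like ratio in both genotypes, while with dexamethasone the ratios were far apart. These ratios share the Serinc3 values that chose the set and were not tested.

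The annotated surroundings of Serinc3 were examined next. The nearest protein-coding genes on either side are Pkig, which encodes an inhibitor of protein kinase A, and Ttpal, which encodes a protein related to the tocopherol transfer protein. Pkig (chromosome 2, 163658386 to 163726158, plus strand) starts 13.3 kb from the Serinc3 start. It was at 10.5 ± 1.77 and 14.7 ± 1.23 FPKM (SD, n = 4) in wildtype libraries with vehicle and dexamethasone and at 3.80 ± 0.175 and 3.65 ± 0.317 in FOXO3-/- libraries. Pkig was lower in FOXO3-/- libraries by -1.25 ± 0.10 with vehicle (limma, adjusted p = 3.3e-06) and by -1.75 ± 0.10 with dexamethasone (adjusted p = 8.12e-08). It rose with dexamethasone in wildtype libraries by 0.45 ± 0.10 (limma, adjusted p = 0.00338), and the difference in FOXO3-/- libraries was -0.05 ± 0.10 (adjusted p = 0.749). The 2 responses of Pkig differed by -0.50 ± 0.14, which did not pass (limma, adjusted p = 0.194).

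Ttpal (chromosome 2, 163602314 to 163619013, plus strand) starts 42.8 kb away. It was at 6.12 ± 0.479 and 6.52 ± 0.998 FPKM in wildtype and 3.91 ± 0.116 and 3.48 ± 0.190 in FOXO3-/- libraries (SD, n = 4). Ttpal was lower in FOXO3-/- libraries by -0.53 ± 0.086 with vehicle (limma, adjusted p = 0.00221) and -0.74 ± 0.086 with dexamethasone (adjusted p = 9.03e-05). It passed no test of dexamethasone (limma, adjusted p = 0.567 and 0.236). Serinc3 thus lay between 2 genes that were both called lower in FOXO3-/- libraries in both treatments. The labels give FVB/N for all mice but not the strain in which the FOXO3-/- allele was made, and an inherited difference between the mouse lines near Serinc3 cannot be told apart from the labelled genotype.

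The antisense gene 0610039K10Rik (chromosome 2, 163644850 to 163645801, plus strand) overlaps the 5′ end of Serinc3. It had 0 to 14 reads in wildtype libraries with vehicle, 29 to 35 with dexamethasone, and at most 2 in FOXO3-/- libraries. No label gives the strand setting of the counting, so reads of this gene and of Serinc3 at their overlap cannot be told apart. Its mean of 1.88 ± 0.237 FPKM with dexamethasone in wildtype (SD, n = 4) is far below that of Serinc3. Its difference was 1.05 ± 0.15 (SE) with dexamethasone in wildtype libraries. Only in that group did it reach 1 FPKM, so it passed the filter through that group alone, and no test of it is given.

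Of 25 annotated genes within 500 kb of Serinc3, 12 passed the filter beside Serinc3 itself. With vehicle, 2 were called higher and 2 lower in FOXO3-/- libraries, where 3.37% and 1.3% of all genes were. The lower genes were Pkig and Ttpal. The higher ones, named after their values were seen, were Tox2, an HMG-box factor, at 1.06 ± 0.25 (limma, adjusted p = 0.0241) and Tomm34, a mitochondrial import protein, at 0.23 (adjusted p = 0.032). With dexamethasone 3 were lower, the third being 0610039K10Rik, and 2 were higher, Tomm34 and the kinase Stk4, where 12.4% and 14.3% of all genes were called. Because 0610039K10Rik passed the filter only through wildtype libraries with dexamethasone, its place in this count is not a test of it. The adenosine deaminase gene Ada, 105 kb from Serinc3 and also named after its values were seen, rose with dexamethasone by 1.34 ± 0.14 in wildtype (limma, adjusted p = 8.89e-06) and 1.42 ± 0.14 in FOXO3-/- libraries (adjusted p = 3.17e-06), with genotype differences of 0.00 and 0.07. Without the 3 libraries that stood apart in Col1a1, 4 were higher and 4 lower with vehicle and 2 and 6 with dexamethasone. Leaving out wildtype dexamethasone replicate 4 alone gave 6 lower with dexamethasone. The count of 2 higher with vehicle fell to 0 without any 1 of wildtype vehicle replicates 1, 2 and 4 or FOXO3-/- vehicle replicates 1, 2 and 3, and that of 2 higher with dexamethasone to 1 without any 1 of wildtype replicates 1, 2 and 3 or FOXO3-/- replicates 1, 2 and 4. In all these settings Pkig and Ttpal kept their calls between genotypes. No share of all genes is given for these settings, and nothing is read from their counts.

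**Figure D5:**
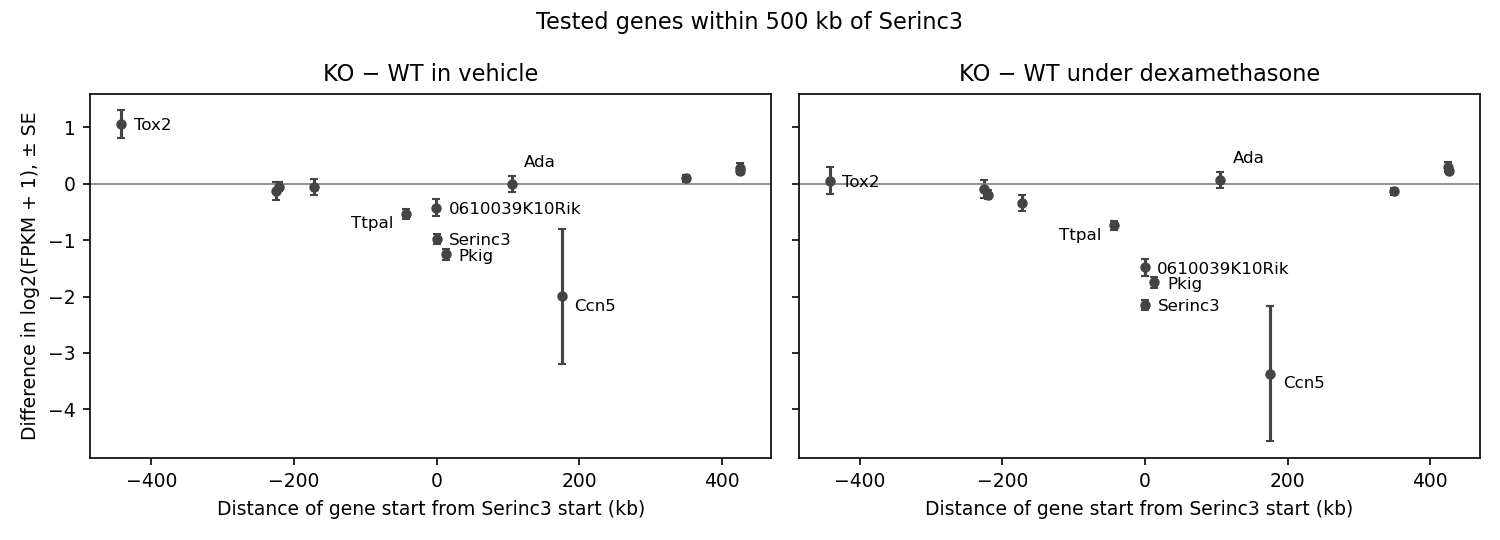
Difference between genotypes (FOXO3-/- minus wildtype, KO and WT in the panel titles) in log2(FPKM + 1) with its SE, for Serinc3 and the 12 tested genes within 500 kb, against the distance between gene starts in kb. Serinc3, Pkig, Ttpal and the overlapping 0610039K10Rik lie below 0 in both panels, Ada lies near 0, and Ccn5 has an SE over 1 and passed neither test.

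Around Serinc1 and Serinc5 few genes passed the filter. Of 3 tested genes near Serinc1, 0 were called in either genotype comparison by limma; with vehicle 1 had an unadjusted p under 0.05 and 0 passed by voom, and with dexamethasone the counts were 2 and 2. Of its neighbours, Hsf2, a heat shock factor, passed no test, while Pkib, another inhibitor of protein kinase A, fell with dexamethasone by -0.80 in wildtype (limma, adjusted p = 0.00305) and -0.79 in FOXO3-/- libraries (adjusted p = 0.00254). Of 4 tested genes near Serinc5, 0 were called with vehicle by limma, with 0 at an unadjusted p under 0.05 and 0 by voom. With dexamethasone 1 was higher. Over all genes 3.37% and 1.3% were called higher and lower with vehicle and 14.3% and 12.4% with dexamethasone. With so few genes tested, nothing is read from the counts near Serinc1 and Serinc5 or from setting them beside Serinc3. The immediate neighbours of Serinc5, Spz1 and Thbs4, were at 0, and those of Serinc2, Gm853 and Gm10570, were at 0 and at most 0.118 FPKM.

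The genes whose log2(FPKM + 1) followed Serinc3 most closely over the 16 libraries were Mxi1, an antagonist of MYC, with Pearson r = 0.956 and Spearman rho = 0.947, Ccng2, cyclin G2 (0.955 and 0.926), Gsr, glutathione reductase (0.954 and 0.938), Zfp949, a zinc finger protein (0.954 and 0.962), and Spice1, a centriole protein (0.948 and 0.929). They were picked for this from 10288 genes, so the values describe them and carry no p, and libraries of a group share its treatment and genotype. Ranking by Spearman's rho left 2 of these 5. Like Serinc3, all 5 had their highest group mean in wildtype libraries with dexamethasone and their lowest in FOXO3-/- libraries with vehicle. Zfp949 was at 5.21 and 9.21 FPKM in wildtype libraries with vehicle and dexamethasone and at 1.44 and 2.02 in FOXO3-/- libraries. Gsr was at 26.7, 42.6, 16.6 and 21.03 FPKM in that order.

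For Serinc5 the closest were Cbx7, a Polycomb protein (r = 0.984, rho = 0.965), Arid5b, a DNA-binding protein (0.975 and 0.991), and Fam193b (0.967 and 0.947). Arid5b was at 10.04 and 20.3 FPKM in wildtype and 6.73 and 11.96 in FOXO3-/- libraries with vehicle and dexamethasone. For Serinc1 they were Larp4, an RNA-binding protein (0.953 and 0.888), Csgalnact2, an enzyme of chondroitin sulfate synthesis (0.949 and 0.891), and Nkap (0.948 and 0.894). Ranking by rho left 1 of the 3 for Serinc5 and 0 of the 3 for Serinc1. Among the paralogs over the 16 libraries, Serinc3 and Serinc5 had r = 0.79 and rho = 0.75, and Serinc3 and Serinc1 r = -0.22 and rho = -0.16.

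Genes of the processes tied to the family were read from 5 lists. All 12 genes of serine synthesis and uptake were tested. With dexamethasone, 4 rose and 0 fell in wildtype libraries and 2 rose and 1 fell in FOXO3-/- libraries, where 11.9% and 18.2% of all genes rose and fell in wildtype and 15% and 24.1% in FOXO3-/- libraries. The median differences of the list were 0.21 and -0.078 on the log2 scale, against -0.018 and -0.055 over all genes. Slc7a8, a carrier of small neutral amino acids, rose by 0.74 ± 0.080 in wildtype (limma, adjusted p = 1.09e-05) and 0.99 ± 0.080 in FOXO3-/- libraries (adjusted p = 3.59e-07). Shmt1, which interconverts serine and glycine in the cytosol, rose by 0.34 (adjusted p = 0.00494) and 0.76 (adjusted p = 5.26e-06). Slc38a2, which brings in neutral amino acids with sodium, was at 9.34 and 14.4 FPKM in wildtype libraries and at 9.37 and 9.62 in FOXO3-/- libraries. It rose in wildtype libraries by 0.58 ± 0.070 (limma, adjusted p = 2.93e-05) with a difference of 0.03 ± 0.070 in FOXO3-/- libraries (adjusted p = 0.749), and the 2 responses differed by -0.54 ± 0.099, just short of the threshold (adjusted p = 0.051). Slc1a5, a glutamine and serine exchanger, rose in wildtype libraries by 1.17 ± 0.31 (adjusted p = 0.0103) and was at -0.10 ± 0.31 in FOXO3-/- libraries (adjusted p = 0.827). Its wildtype libraries with dexamethasone ran from 6.71 to 29.0 FPKM and overlapped those with vehicle, at 5.91 to 7.81, and the rise missed the threshold when only these 2 groups were fitted (limma, adjusted p = 0.0708).

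Between genotypes with dexamethasone, 3 of these 12 genes were higher and 3 lower in FOXO3-/- libraries, where 14.3% and 12.4% of all genes were. Slc38a2 and Slc1a5 were among the lower ones, the call of Slc1a5 being lost with the stromal score as a covariate (limma, adjusted p = 0.0704). With vehicle 0 were called by limma or voom, with 2 at an unadjusted p under 0.05. Without the 3 libraries that stood apart in Col1a1, 1 was higher and 4 lower with vehicle and 3 higher and 7 lower with dexamethasone. Without wildtype dexamethasone replicate 4 alone, 6 were lower with dexamethasone. No share of all genes is given for these fits, and nothing is read from their counts.

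Of the 3 genes of phosphatidylserine synthesis, Pisd, the mitochondrial decarboxylase that uses phosphatidylserine up, fell with dexamethasone in wildtype libraries by -0.28 ± 0.092 (limma, adjusted p = 0.033), and its difference in FOXO3-/- libraries was -0.23 ± 0.092 (adjusted p = 0.058). Neither synthase gene, Ptdss1 or Ptdss2, was called in any comparison. The Pisd call was lost without any 1 of wildtype vehicle replicates 1, 3 and 4 or wildtype dexamethasone replicates 1, 2 and 3, which leaves 0 of the 3. Of 12 flippase and scramblase genes, whose products move lipids between membrane leaflets, 2 rose and 1 fell with dexamethasone in wildtype and 2 rose and 3 fell in FOXO3-/- libraries, with medians of -0.0061 and -0.027. Over all genes the shares that rose and fell were 11.9% and 18.2% in wildtype and 15% and 24.1% in FOXO3-/- libraries, and nothing is read from these counts. Vmp1, a scramblase of the endoplasmic reticulum, rose in FOXO3-/- libraries by 0.39 ± 0.087 (limma, adjusted p = 0.00258), with 0.21 ± 0.087 in wildtype (adjusted p = 0.0858). Plscr3, a phospholipid scramblase, fell by -0.31 (limma, adjusted p = 0.0251) and -0.36 (adjusted p = 0.00842). Both Plscr3 calls were lost by quantile normalization (adjusted p = 0.0592 and 0.0673) and voom (0.157 and 0.192), and that in wildtype also by median-ratio scaling (0.0523) and without any 1 of wildtype vehicle replicates 1, 2 and 4 or wildtype dexamethasone replicate 2 (0.0606 to 0.0779). Between genotypes 1 gene was higher with vehicle (3.37% of all genes), and 1 was higher and 1 lower with dexamethasone (14.3% and 12.4%), Atp8a1 at 0.60 (limma, adjusted p = 0.00737, and 0.141 with the stromal score) and Atp11a at -0.28 (adjusted p = 0.00865). Without the 3 libraries apart in Col1a1 these counts became 5 higher and 1 lower with vehicle and 3 and 2 with dexamethasone. No share of all genes is given for that fit, and nothing is read from the change.

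Of 17 genes of sphingolipid synthesis, 14 passed the filter. With dexamethasone 2 rose and 2 fell in wildtype and 3 rose and 4 fell in FOXO3-/- libraries, with medians of -0.085 and -0.023. The shares of all genes that rose and fell were 11.9% and 18.2% in wildtype and 15% and 24.1% in FOXO3-/- libraries, and nothing is read from these counts either. Cers6, a ceramide synthase, fell by -0.92 ± 0.15 (limma, adjusted p = 0.000327) and -1.17 ± 0.15 (adjusted p = 2.69e-05). Sgms1, a sphingomyelin synthase, rose by 0.61 (limma, adjusted p = 0.00471) and 0.85 (adjusted p = 0.000285), and Kdsr, which reduces ketosphinganine, by 0.53 (adjusted p = 0.000148) and 0.23 (adjusted p = 0.0314). The second Kdsr call was lost without a filter (adjusted p = 0.0673) and without any 1 of FOXO3-/- vehicle replicates 2, 3 and 4 or FOXO3-/- dexamethasone replicates 1 and 3 (0.0533 to 0.106). Between genotypes 0 were called with vehicle by limma or voom, with 3 at an unadjusted p under 0.05, and 2 were higher and 2 lower with dexamethasone, where 14.3% and 12.4% of all genes were. Without the 3 libraries apart in Col1a1, 8 were higher and 2 lower with vehicle and 7 and 3 with dexamethasone. The share of all genes called in that fit is not given, so nothing is read from these counts.

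Other restriction factors mostly fell with dexamethasone in wildtype libraries. Of 14 genes, all tested, 4 rose and 9 fell in wildtype libraries and 1 rose and 6 fell in FOXO3-/- libraries, with medians of -0.60 and -0.37, where 11.9% and 18.2% of all genes rose and fell in wildtype and 15% and 24.1% in FOXO3-/- libraries. Bst2, tetherin, which holds budding virus at the cell surface, was at 208 ± 16 and 87.3 ± 15.2 FPKM (SD, n = 4) in wildtype libraries with vehicle and dexamethasone and at 314 ± 60.1 and 133 ± 16.3 in FOXO3-/- libraries. It fell by -1.26 ± 0.14 (limma, adjusted p = 1.28e-05) and -1.22 ± 0.14 (adjusted p = 9.89e-06). The interferon-induced Mx1 fell by -1.39 (limma, adjusted p = 4.56e-06) and -1.20 (adjusted p = 1.07e-05), and the RNA helicase Mov10 by -0.92 (adjusted p = 2.33e-05) and -0.89 (adjusted p = 2.01e-05).

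Between genotypes 3 of the 14 restriction factors were higher and 0 lower in FOXO3-/- libraries with vehicle, where 3.37% and 1.3% of all genes were. With dexamethasone 6 were higher and 0 lower, where 14.3% and 12.4% of all genes were. The medians were 0.24 and 0.27, against 0.042 and 0.030 over all genes. At an unadjusted p under 0.05, 7 of the 14 differed with vehicle, a level for which no share of all genes is given. Bst2 differed by 0.57 (limma, adjusted p = 0.0297) and 0.61 (adjusted p = 0.00772). With the stromal score as a covariate both calls were lost, at 0.36 (adjusted p = 0.161) and 0.33 (adjusted p = 0.149). The call with vehicle was also lost with the replicate block (adjusted p = 0.0694), without a filter (0.0668), with only the 2 groups fitted (0.0747) and without any 1 of wildtype vehicle replicates 1, 2 and 4 or FOXO3-/- vehicle replicates 2 and 3 (0.0503 to 0.0966). The 3 higher with vehicle became 1 without wildtype vehicle replicate 1 or 2 or FOXO3-/- vehicle replicate 2, 5 without wildtype vehicle replicate 3, and 7, with 1 lower, without the 3 libraries apart in Col1a1. The 4 that rose in wildtype libraries became 2 without wildtype vehicle replicate 1 or 2 or wildtype dexamethasone replicate 1 or 4. For the fits that leave libraries out no share of all genes is given, and nothing is read from their counts. Over all 55 genes of the 5 lists, 0 passed the interaction by limma or voom, where 0.129% of all genes passed by limma. At an unadjusted p under 0.05 there were 8. The share of all genes at that looser level is not given, so nothing is read from the 8.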

How the data were processed

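RNA was sequenced in 16 libraries, 4 in each of 4 groups taken from the labels. The authors deposited 1 FPKM table per library; per the submitters' processing notes the builds were GRCm38 and mm10, and the tools named are TopHat2 2.0.12, Bowtie2 2.2.3, DESeq2 and HTSeq 0.6.1. No source used here gives the strand setting. Symbols came from GENCODE M21, which held 54495 of 54532 identifiers. The FPKM values were whole multiples of 1 read in 96.5% of positive values within 0.05 reads, which gave the reads quoted; intervals and floors of 3 reads cover counting error only.

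Values were tested as log2(FPKM + 1), with a pseudocount of 1 that understates changes of low genes. Genes at 1 FPKM or more in at least 4 libraries (11654) entered limma 3.58.1 (R 4.3.3) with 4 group means and an intensity trend, with two-sided p-values adjusted per comparison, 5 in all, by the Benjamini-Hochberg method (threshold 0.05). Intervals of the members use 12 residual degrees of freedom. Serinc2, under the filter, was tested by exact permutation. Python 3.11.15, scipy 1.17.1 and BLAST+ 2.17.0 did the rest. BLAST found 1 near copy of Serinc3, the processed pseudogene Gm12420 (90.7% identity over 1043 bases), which was at 0 in all libraries. The steps were tested on simulated data.

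Members and gene lists were chosen with earlier results of these data known. The genes named are the family, Foxo3, the immediate protein-coding neighbours, the closest genes by Pearson r (5 for Serinc3, 3 for each other), up to 4 called members per list with the smallest adjusted p, and Col1a1 and Adgre1 as markers; others are said to be named after their values were seen. One gene that the rule covers is not reported here. Alternatives varied the pseudocount, filter, scaling, weights, groups fitted, replicate block and libraries.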

Additional observations from a re-analysis of the deposited data

Results flagged for a closer look

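The ratio of Serinc3 to Serinc1 in wildtype vehicle replicate 3 was 3.58, where the other 3 libraries of the group had 5.53 to 5.67. It was set apart because the gap to the nearest library made up 0.933 of the range of the group. Chance alone sets apart about 1 in 20 groups in this way. Serinc1 was at 63.1 FPKM in this library, the highest of all 16, Serinc3 was at 226 FPKM, and Col1a1 was at 6.77 FPKM. The part of these values in the ratio was not tested.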

How the results depend on the processing

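Of 417 member values computed under alternatives, 402 kept their direction, their side of the threshold and, where untested, their size within 1 SD. Not all of them could change. Leaving out a library outside the groups compared keeps a difference as it was, as do the replicate block, the filter and fitting only 2 groups. For Serinc3, which has no p, such values were fixed, so the count overstates its stability. Every genotype and treatment call of Serinc5 held under the alternatives run. With quantile normalization Serinc3 moved to 1.54 with dexamethasone in wildtype and 0.46 in FOXO3-/- libraries, and with voom on recovered reads to 0.39 in FOXO3-/-. Serinc1 with dexamethasone in FOXO3-/- libraries was 0.37 by quantile normalization (adjusted p = 0.0486) and 0.39 by voom (adjusted p = 0.0289). Serinc1 between genotypes with vehicle was 0.34 with array weights (adjusted p = 0.00974), 0.31 without the 3 libraries apart in Col1a1 (adjusted p = 0.0393), -0.0022 by quantile normalization and -0.12 with the stromal score; with dexamethasone it was 0.34 (adjusted p = 0.00511), 0.30 (adjusted p = 0.03) and -0.026 with array weights, without the 3 libraries and with the stromal score. Without those 3 libraries its interaction was -0.016. The Serinc5 interaction was 0.39 with array weights (adjusted p = 0.0261). The cause of these shifts was not tested.

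With each library left out in turn, Serinc3 ranged from 1.31 to 1.45 and 0.198 to 0.248 with dexamethasone in wildtype and FOXO3-/-, from -1.03 to -0.92 and -2.21 to -2.07 between genotypes, and from -1.23 to -1.09 in the interaction. Serinc5 ranged from 0.81 to 0.93, 1.04 to 1.15, -0.82 to -0.73, -0.62 to -0.50 and 0.16 to 0.28 in the same order. Serinc1 ranged from -0.033 to 0.20, 0.14 to 0.28, 0.0022 to 0.24, 0.20 to 0.30 and 0.013 to 0.25, with the value below 0 without wildtype vehicle replicate 1.

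Replicate numbers are not said to pair libraries, and 8 of 24 same-numbered pairs had deviations correlated over 0.1 (range -0.76 to 0.73), against 35 of 72 other pairs. A fit with the replicate number as a block gave 1.39, 0.22, -0.98, -2.14 and -1.17 for Serinc3, 0.87, 1.09, -0.78, -0.56 and 0.22 for Serinc5 and 0.06, 0.21, 0.10, 0.25 and 0.15 for Serinc1. Each number occurs once in every group, so these differences equal those of the main fit by design. Only their SE and p could change, and no call of Serinc5 or Serinc1 did.

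List counts, many of them below 5, moved by over 1.5 times in 270 of 2532 values. Of 1559 values of other named genes, 48 lost their call, among them Bst2 between genotypes with vehicle in 9 settings, the block included, Pisd in wildtype in 9, Plscr3 in wildtype in 7, Mx1 between genotypes with dexamethasone in 7 and Kdsr in FOXO3-/- in 6. Family shares and ratios are the same under any scaling of a library and were not recomputed. Depth limits Serinc2, at most 7 reads. Serinc4 is listed at 0, and how reads shared with the genes it overlaps were counted is not known.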
